A study of Mus musculus with 6 samples.

Results

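The genes described here are 10 members of the Notch pathway: the receptors Notch1 and Notch2, the DNA-binding factor Rbpj, the Deltex genes Dtx1, Dtx2, Dtx3 and Dtx4, and the target genes Hes1, Hey1 and Nrarp. They were found by the gene names of the array design, which give 14 of 55681 non-control probes. Dtx1 was chosen by its rise in the comparison described here, and the other members were taken by name as its pathway, so the members' values in this comparison are given as a description with no test. Where a member is said to be past the threshold of the fit over all genes, or not past it, this too is only a description. The detection filter required a signal well above background on 3 or more of the 6 arrays, which 9 of the 10 genes and 11 of the 14 probes passed, and Nrarp did not. With Mi2β knocked down, Dtx1 came up from a signal not well above background and Hey1 was 2.08-fold higher. The groups overlapped for Hes1, and for the receptors and the other Deltex genes on their brighter probes. The probes of Rbpj differed in direction.

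The arrays compared 3 samples of G1E-ER-GATA-1 cells given a non-targeting siRNA (control) with 3 samples given an siRNA against Mi2β (knockdown). G1E-ER-GATA-1 is a mouse erythroid cell line without GATA-1 of its own, in which an estrogen receptor fusion of GATA-1 becomes active when β-estradiol is added. Both groups received siRNA by nucleofection at 0 h and at 24 h, both had β-estradiol from 24 h on, and RNA was taken at 48 h, so neither group shows the cells without active GATA-1. Mi2β, the product of Chd4, is the ATPase of the NuRD complex, in which nucleosome remodelling is coupled to histone deacetylation. The labels do not say whether the 3 samples of a group were separate cultures, so a p-value measures only the spread between these samples.

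Notch receptors are single-pass membrane proteins that are cut when a ligand on a neighbouring cell binds them, and the freed intracellular part enters the nucleus. There it joins Rbpj, a DNA-binding protein that otherwise recruits corepressors, and a Mastermind coactivator to switch on targets such as the Hes and Hey repressor genes. Deltex proteins are ubiquitin ligases, of which Dtx1 binds the receptor's intracellular part and is itself a target of the pathway in lymphoid cells. In blood the pathway is best known for directing progenitors to the T cell fate.

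Short sequences of some members are given next. The stretches below lie in the 250 bases upstream of the start of 3 members (RefSeq, GRCm38.p6) and are shown because each holds a motif of a factor named in this design or pathway, which is in capitals. The motifs searched on both strands were TGGGAA for Rbpj, with GTGGGAA as its longer form, and, for GATA factors, AGATAA with its variant AGATAG as well as TGATAA with its variant TGATAG. Each stretch is written along the gene's strand, and TTCCCA is the Rbpj motif read on the opposite strand.
Dtx1, chr5:120711805-120711834, minus strand: taaatgcaaagaTGATAGattggaaccaga
Dtx2, chr5:135994765-135994794, plus strand: tcagaactacatTTCCCAgaaggcactgcg
Rbpj, chr5:53590185-53590214, plus strand: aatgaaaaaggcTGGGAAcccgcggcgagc
Rbpj, chr5:53590269-53590298, plus strand: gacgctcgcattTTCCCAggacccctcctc
The GATA motif of Dtx1 lies 153 bases before its start, the Rbpj motif of Dtx2 lies 23 bases before its start, and those of Rbpj lie 149 and 65 bases before its start. The promoter table holds 6 of the 10 members, with 7 windows in all. Hes1, Hey1, Dtx3 and Dtx4 are not in it, so their upstream bases were not searched. Of the 6 genes searched, 2 hold the Rbpj motif, 0 its longer form and 1 a GATA motif. Of 32851 promoters of the same length, 21.6% hold the Rbpj motif, 5.42% its longer form and 26.5% a GATA motif. A match describes the letters only.

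The next sequences are the first 30 of the 60 bases of the array probes that the values of Dtx1, Hey1, Hes1 and Rbpj come from, as given by the array's design. They show which stretch of each transcript was measured, and Rbpj has a pair of probes whose values differed in direction.
Dtx1, A_51_P202050: tgaggattggctgctgggatggaagtcagc
Hey1, A_51_P258409: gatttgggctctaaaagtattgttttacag
Hes1, A_55_P2046245: ttaaaatatcttcctttggggaagtttatt
Rbpj, A_66_P139267: tttgtagaaaaaggaatctgctcaattcca
Rbpj, A_55_P2022524: acacaaacagcgaggggaattacacaaatg
On the build of the array files (mm9) the Dtx1 probe lies at chr5:121130278-121130337 on the minus strand and the Hey1 probe at chr3:8663432-8663491 on the minus strand. The Hes1 probe lies at chr16:30067820-30067879 on the plus strand. The first Rbpj probe lies at chr5:54048503-54048562 and the second at chr5:54044777-54044836, both on the plus strand.

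The gene targeted by the siRNA, Chd4, was lower in the knockdown, with no overlap. Its probe gave signals of 22662, 23037 and 21115 on control arrays 1 to 3 and of 10943, 9537 and 9417 on knockdown arrays 1 to 3. On the log2 scale, relative to each array's 75th percentile of signal, Chd4 fell by 1.31 (SE 0.10, adjusted p = 0.00161 by limma), and its call held under all 17 alternative settings. All 8 erythroid markers checked were detected on all 6 arrays. The share of probes detected, that is well above background, was 53.0% to 56.4% on the control arrays and 61.2%, 74.0% and 48.5% on knockdown arrays 1 to 3. All arrays were on 1 slide, with arrays 1 and 2 of each group in slide row 1 and array 3 of each group in row 2.

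Among all 22133 genes tested, 4.99% were past the threshold of 0.05 on the adjusted p and higher in the knockdown, and 4.56% were past it and lower. Of the 9 member genes tested, 2 were past it and higher (Dtx1 and Hey1), 0 were past it and lower, and 7 were not past it. The groups of arrays did not overlap, with the knockdown higher, for 12.7% of all genes, and with the knockdown lower for 18.4%. Among the members they did not overlap for 2 genes with the knockdown higher (Dtx1 and Hey1) and for 1 with it lower (Rbpj). In a fit of single probes, 8.19% of 31853 probes were past the threshold, and of the 11 member probes tested 2 were. Because Dtx1 was chosen on this comparison, nothing is read from these counts of members.

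Dtx1, one of the ubiquitin ligases of the pathway, had the largest difference among the members. Its signal was 3.53, 2.81 and 5.17 on control arrays 1 to 3 and 480, 415 and 453 on knockdown arrays 1 to 3. The probe was detected on 0 of 3 control arrays and on 3 of 3 knockdown arrays, with no overlap. Against the lowest signal that counted as well above background on each control array, Dtx1 was 30.2-fold higher in the knockdown. This value takes the knockdown mean over the control mean of, per array, the higher of that lowest signal and the probe's own. It is not a strict lower bound, since a probe not well above background can lie above that lowest signal, as Dtx4 did on control array 2. The fitted log2 change was 6.77 (SE 0.20), ranking 1 of 22133 among rises, but its control values were not detected ones, so its size is uncertain. With normexp background correction, which adds an offset of 50, it was 2.90. The difference was 6.95 within slide row 1 and 6.41 within row 2.

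**Figure D1:**
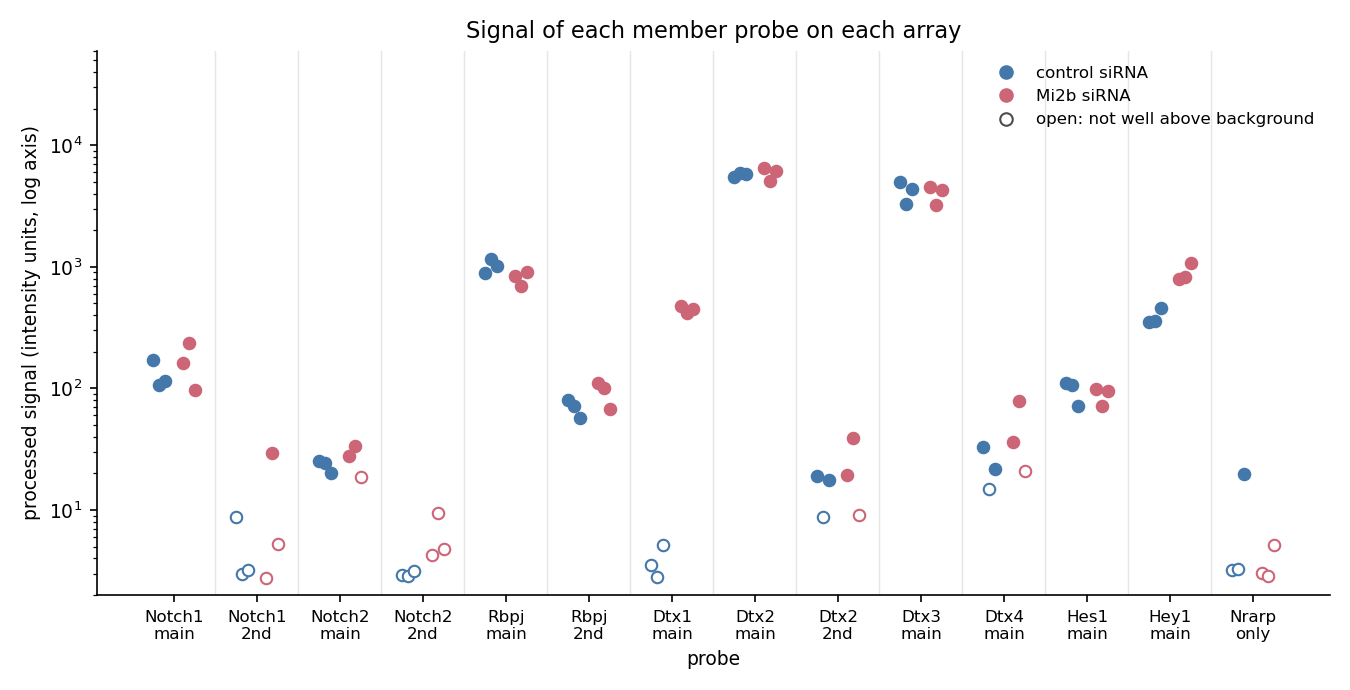
Processed signal (intensity units, log axis) of each of the 14 member probes on the 3 control (blue) and 3 knockdown (red) arrays, with open points where the probe was not well above background. Dtx1 goes from 2.81 to 5.17 on the control arrays to 415 to 480 on the knockdown arrays, Hey1 separates from 354 to 455 up to 795 to 1069, and most other probes overlap; levels of different probes are not comparable.

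Of the other target genes, Hey1 was higher in the knockdown and Hes1 was not. Hey1, which encodes a repressor of the basic helix-loop-helix class, gave signals of 354, 357 and 455 on the control arrays and of 795, 825 and 1069 on the knockdown arrays. Every knockdown array was above every control array. The log2 change was 1.06 (SE 0.17), a 2.08-fold difference, with 0.99 within slide row 1 and 1.19 within row 2. Hey1 was past the threshold under 11 of 17 alternatives. It was not past it without control replicate 1 (1.00), control replicate 2 (1.03) or knockdown replicate 2 (1.07). Nor was it with array median scaling (0.82), without a detection filter (1.06) or within slide row 1 alone (0.99).

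Hes1, the repressor most often used as a readout of the pathway, gave signals of 112, 107 and 71.5 on the control arrays and of 98.5, 71.2 and 95.9 on the knockdown arrays. The groups overlapped, with a log2 change of -0.26 (SE 0.23). The difference was -0.58 within slide row 1 and 0.38 within row 2, so the rows went opposite ways. Its change lay between -0.58 and -0.14 over the 17 alternatives, none of which passed the threshold. Nrarp, which encodes an ankyrin repeat protein that dampens Notch signalling, was detected on 1 array only. Its signals were 3.20, 3.27 and 19.7 on the control arrays and 3.06, 2.85 and 5.13 on the knockdown arrays, and only control array 3 was well above background. Nrarp was therefore below the detection filter and gives no fold.

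Dtx1 thus differed in the same direction as Hey1 and not as Hes1, with sizes far apart. A measure of likeness to Dtx1 was the root mean square difference between 2 genes' 6 values, each taken relative to the gene's own mean. Among 14268 other genes with a symbol, Hey1 ranked 521 by this measure, with a difference of 2.86, and Dtx4 ranked 1383, with 3.12. Notch1 ranked 5059, Notch2 6515, Dtx2 8196, Dtx3 10091, Hes1 11338 and Rbpj 12865. The nearest genes were Pnma5 (0.35), the cardiac troponin I gene Tnni3 (0.38), Cfap43 (0.43), Palm3 (0.65) and the embryonic globin gene Hbb-bh1 (0.78). Pnma5, Cfap43 and Palm3 were, like Dtx1, detected on 0 of 3 control arrays and on 3 of 3 knockdown arrays. The control values of Dtx1 that enter this measure were not well above background, so its profile, and each rank taken against it, is uncertain there. The measure takes in the size of the difference between groups, so genes with a rise like that of Dtx1 rank first.

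Rbpj gave a different picture with each of its probes. The brighter probe gave signals of 892, 1165 and 1007 on the control arrays and of 834, 700 and 916 on the knockdown arrays. After scaling by each array's 75th percentile, every knockdown array was below every control array, with a log2 change of -0.47 (SE 0.16), which did not pass the threshold. The difference was -0.61 within slide row 1 and -0.18 within row 2, and it passed the threshold with normexp (-0.45) and with array weights (-0.47). The dimmer probe gave signals of 80.6, 71.6 and 56.9 on the control arrays and of 111, 100 and 67.8 on the knockdown arrays. Its groups overlapped, with a log2 change of 0.25 (SE 0.23), so the probes differed in direction, and the mean over both was -0.11.

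The other Deltex genes did not move with Dtx1. Dtx2 gave signals of 5437, 5963 and 5777 on the control arrays and of 6561, 5070 and 6135 on the knockdown arrays on its brighter probe, with a log2 change of -0.10 (SE 0.11). Its dimmer probe gave 19.1, 8.72 and 17.5 on the control arrays and 19.5, 38.9 and 9.15 on the knockdown arrays, well above background on 2 arrays of each group. That probe's log2 change was 0.27 (SE 0.58), with 0.90 within slide row 1 and -0.98 within row 2, and with the mean over both probes the change of Dtx2 was 0.08. Dtx3 gave signals of 4985, 3275 and 4394 on the control arrays and of 4509, 3225 and 4258 on the knockdown arrays. Its groups overlapped, with a log2 change of -0.22 (SE 0.18). Dtx4, which ubiquitinates the receptor at the cell surface, gave 32.8, 15.0 and 21.8 on the control arrays and 35.9, 78.8 and 20.9 on the knockdown arrays. Its groups overlapped, with a log2 change of 0.68 (SE 0.54). Knockdown array 2 set most of that value, which was 0.13 without it, and the difference was 1.07 within slide row 1 and -0.10 within row 2.

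The receptors did not differ beyond the spread between arrays. Notch1 gave signals of 172, 106 and 114 on the control arrays and of 163, 234 and 96.3 on the knockdown arrays on its brighter probe. The groups overlapped, with a log2 change of 0.13 (SE 0.37), 0.33 within slide row 1 and -0.29 within row 2, and it turned to -0.21 without knockdown replicate 2 and to -0.11 with array median scaling. The second Notch1 probe was well above background on knockdown array 2 only. Notch2 gave 25.3, 24.2 and 20.3 on the control arrays and 27.9, 33.5 and 18.8 on the knockdown arrays on its brighter probe, well above background on all 3 control and 2 knockdown arrays. Its log2 change was 0.02 (SE 0.25), which turned to -0.20 without knockdown replicate 2 and to -0.21 with array median scaling. The second Notch2 probe was detected on no array. In bulk RNA like this, fewer cells with a transcript and less of it per cell cannot be told apart.

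Dim probes as a whole were highest on knockdown array 2, which had the highest share of probes well above background. Of 350 tested probes with a control signal under 10, where Dtx1 lies, the median difference from the control mean was 1.77, 2.59 and 0.91 on knockdown arrays 1 to 3, on the log2 scale. Of these, 156 were detected on no control array and passed the filter through the knockdown arrays alone, as Dtx1 did. Over all 21588 probes under 10, with no filter, the median was -0.37, 1.18 and 0.40, and Dtx1 lay 6.76, 6.73 and 6.81 from its control mean on these arrays. Of 5930 probes with a control signal of 10 to 30, the median was 0.19, 0.77 and -0.27. The median of 6894 probes at 30 to 100 was -0.04, 0.27 and -0.19 on these arrays, and that of 8604 probes at 100 to 1000 was -0.07, -0.02 and -0.11. Several dim members were highest on array 2 and lowest on array 3. Dtx4 lay 0.46, 1.76 and -0.19 from its control mean on knockdown arrays 1 to 3, the dimmer Dtx2 probe 0.21, 1.37 and -0.76, and Notch2 0.02, 0.46 and -0.42. Notch1 lay 0.11, 0.80 and -0.52 from it, and the dimmer Rbpj probe 0.43, 0.46 and -0.14. Hes1 ran otherwise, at -0.19, -0.49 and -0.10, and was lowest on array 2. Hey1, whose control signals were 354 to 455, lay 0.80, 1.02 and 1.35 from its control mean. The part of the dim shift in the members' values was not tested.

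**Figure D2:**
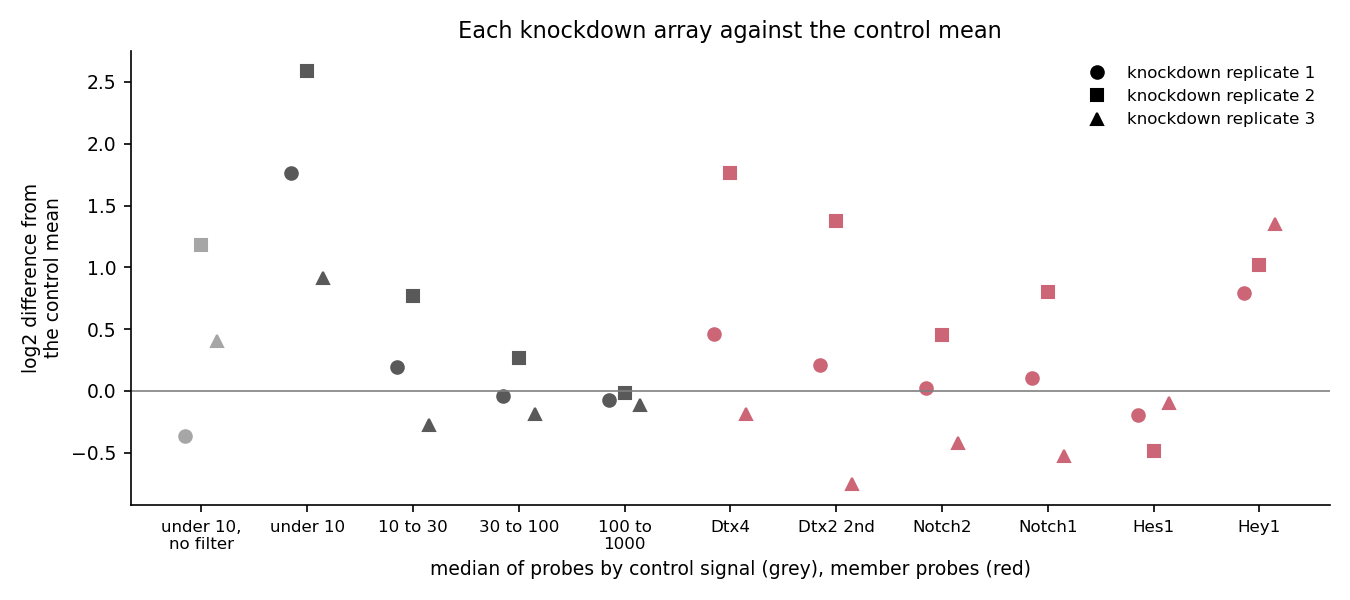
Log2 difference of each knockdown array from the control mean, as the median over probes in 4 ranges of control signal (dark grey, tested probes; light grey, all probes under 10) and for 6 member probes (red), with the array shown by the symbol. Knockdown array 2 (square) is highest for dim probes as a whole, at 2.59 among tested probes under 10 and 0.77 at 10 to 30, and for Dtx4, the dimmer Dtx2 probe, Notch2 and Notch1, but not for Hes1 or Hey1.

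Marker lists of other cells were summed on each array, and those of megakaryocytes and mast cells differed between the groups. The summed level of 4 megakaryocyte markers, in multiples of each array's 75th percentile signal, ranged from 30.6 to 36.4 on the control arrays and from 9.47 to 12.8 on the knockdown arrays, and 4 of 4 were well above background on every control array. Pf4 made up most of that sum (26.7 to 31.4 and 8.61 to 11.3), while Itga2b went the other way (0.0457 to 0.104 and 0.145 to 0.216). That of 3 mast cell markers ranged from 0.241 to 0.305 and from 1.22 to 1.33, with 2 of 3 well above background on every control array, and Mcpt1 carried the difference (0.140 to 0.156 and 1.04 to 1.18). For 6 T lymphocyte markers it ranged from 9.21 to 10.8 on the control arrays and from 9.25 to 10.4 on the knockdown arrays, with 3 of 6 (Cd3e, Cd4 and Lck) well above background on every array. Cd4 and Cd3e made up most of that sum, and Lck alone ranged from 0.330 to 0.335 and from 0.984 to 1.10. For 6 B lymphocyte markers it ranged from 0.236 to 0.287 and from 0.240 to 0.480, and Ms4a1 and Ebf1 were well above background on no array. The sums of 5 macrophage markers (15.4 to 20.03 and 18.9 to 20.1), 4 endothelium markers (13.4 to 14.3 and 11.1 to 13.7) and 4 fibroblast markers (0.203 to 0.245 and 0.181 to 0.341) overlapped between control and knockdown. Itgam made up most of the macrophage sum (13.4 to 17.9 and 17.3 to 18.5), and Kdr most of the endothelium sum (13.0 to 13.8 and 10.6 to 13.2). Among the macrophage markers Csf1r alone did not overlap, and it was lower in the knockdown (1.83 to 1.96 and 1.47 to 1.57). That of the 8 erythroid markers was 1127 to 1165 and 1204 to 1347. The part of these lists in the members' values was not tested.

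The rest of the pathway was read from a list of 61 genes besides the members. Of these, 48 were tested, 12 were below the detection filter and 1 had no probe. By limma, with adjustment over all genes, 3 rose, 6 fell and 39 were not past the threshold. Over all genes tested 4.99% rose and 4.56% fell. The list's median log2 change was -0.04, beside -0.03 over all genes tested.

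Other target genes held the largest rise of the list. Hey2, a repressor of the same family as Hey1, gave signals of 54.8, 45.9 and 60.8 on the control arrays and of 215, 253 and 186 on the knockdown arrays. It rose by 1.87 on the log2 scale (SE 0.16, adjusted p = 0.00204 by limma), with 2.02 within slide row 1 and 1.57 within row 2. Its call held under all 17 alternatives, though with normexp the change was 1.19. Gata3, a transcription factor of T cells and other lineages, gave 145, 170 and 207 on the control arrays and 341, 314 and 310 on the knockdown arrays, and rose by 0.75 (SE 0.13, adjusted p = 0.0212 by limma). That call was lost under 8 of 17 alternatives, among them without control replicate 2 (0.77) or without knockdown replicate 1 (0.76), 2 (0.74) or 3 (0.76), and with array median scaling (0.52). Nfkb2, which encodes an NF-κB subunit, gave 1761, 1564 and 1744 on the control arrays and 968, 785 and 940 on the knockdown arrays. It fell by 1.06 (SE 0.10, adjusted p = 0.00288 by limma), also under all 17 alternatives. Of 8 tested genes of this role, 2 rose, 1 fell and 5 were not past the threshold, among them Myc (0.51, SE 0.14) and Hes6 (0.37, SE 0.14).

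Receptor cleavage genes went both ways. Psen2, a catalytic subunit of gamma-secretase, gave signals of 4963, 4980 and 5132 on the control arrays and of 10159, 8998 and 9019 on the knockdown arrays. It rose by 0.75 (SE 0.08, adjusted p = 0.00480 by limma). The call was lost with array median scaling (0.52), within slide row 1 alone (0.75) and with the replicate number as a block (0.75). Adam10, the protease that cuts the receptor once a ligand has bound, fell by 0.67 (SE 0.12, adjusted p = 0.0211 by limma). Its call was lost under 8 of 17 alternatives, among them without control replicate 1 (-0.72) or without knockdown replicate 1 (-0.68), 2 (-0.66) or 3 (-0.68). Psenen, a further gamma-secretase subunit, fell by 0.49 (SE 0.09, adjusted p = 0.0302 by limma). Its call was lost under 10 of 17 alternatives, among them when any array but knockdown replicate 3 was left out (-0.51 to -0.45) and with the slide row as a block. Of 8 tested genes of this role 1 rose, 2 fell and 5 were not past the threshold, with Aph1b at 0.91 (SE 0.47), which was 0.48 without control replicate 2 and 0.14 with normexp.

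In the nuclear complex limma called 0 of 12 tested genes higher, while 1 had an unadjusted p under 0.05, and 2 fell. Maml1, a Mastermind coactivator, fell by 0.57 (SE 0.11, adjusted p = 0.0299 by limma). Its call was lost under 9 of 17 alternatives, among them when any array but knockdown replicate 3 was left out (-0.61 to -0.52). Ncor1, a corepressor that Rbpj can recruit, fell by 0.51 (SE 0.11, adjusted p = 0.0465 by limma). Its call was lost under 13 of 17 alternatives, among them with any array left out (-0.58 to -0.44), with the slide row as a block and with the mean over its probes (-0.29). Maml2 at 1.30 (SE 0.32) did not pass the threshold (0.39 with normexp), and it was well above background on 2 of 3 control arrays. Its groups did not overlap, and with array weights (1.05) it passed the threshold.

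Among the 11 trafficking and turnover genes 1 fell, and limma called 0 higher, also 0 when p was taken unadjusted. Dtx3l, a Deltex relative that acts with a PARP enzyme in the interferon and DNA damage responses, gave signals of 546, 549 and 570 on the control arrays and of 273, 295 and 320 on the knockdown arrays. It fell by 1.05 (SE 0.12, adjusted p = 0.00550 by limma), a call that ended with the mean over its 3 probes (-0.61). Mib2, which ubiquitinates Notch ligands, was at -0.43 (SE 0.16) and did not pass the threshold, with -0.27 when knockdown replicate 2 was left out. By limma 0 ligands, other receptors and sugar transfer genes passed it, with 1 of them, a receptor, at an unadjusted p under 0.05. The largest of these values were Dll1 at 0.38 (SE 0.34) and Dll3 at -0.35 (SE 0.22) among 3 tested ligands, Notch4 at -0.45 (SE 0.17) and Notch3 at 0.09 (SE 0.24) among the receptors, and Poglut1 at -0.32 (SE 0.17) and Rfng at -0.22 (SE 0.12) among 4 sugar transfer genes. Dll1 was at 0.013 without knockdown replicate 2, at 0.70 without knockdown replicate 3 and at 0.018 with normexp, and Dll3 at -0.13 without control replicate 3. Notch4 passed the threshold with quantile normalization (-0.58) and with array weights (-0.56). The sign of Notch3 turned with array median scaling (-0.14), without control replicate 2 (-0.13) and without knockdown replicate 3 (-0.06). Jag1, Jag2 and Dlk1 were below the detection filter.

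**Figure D3:**
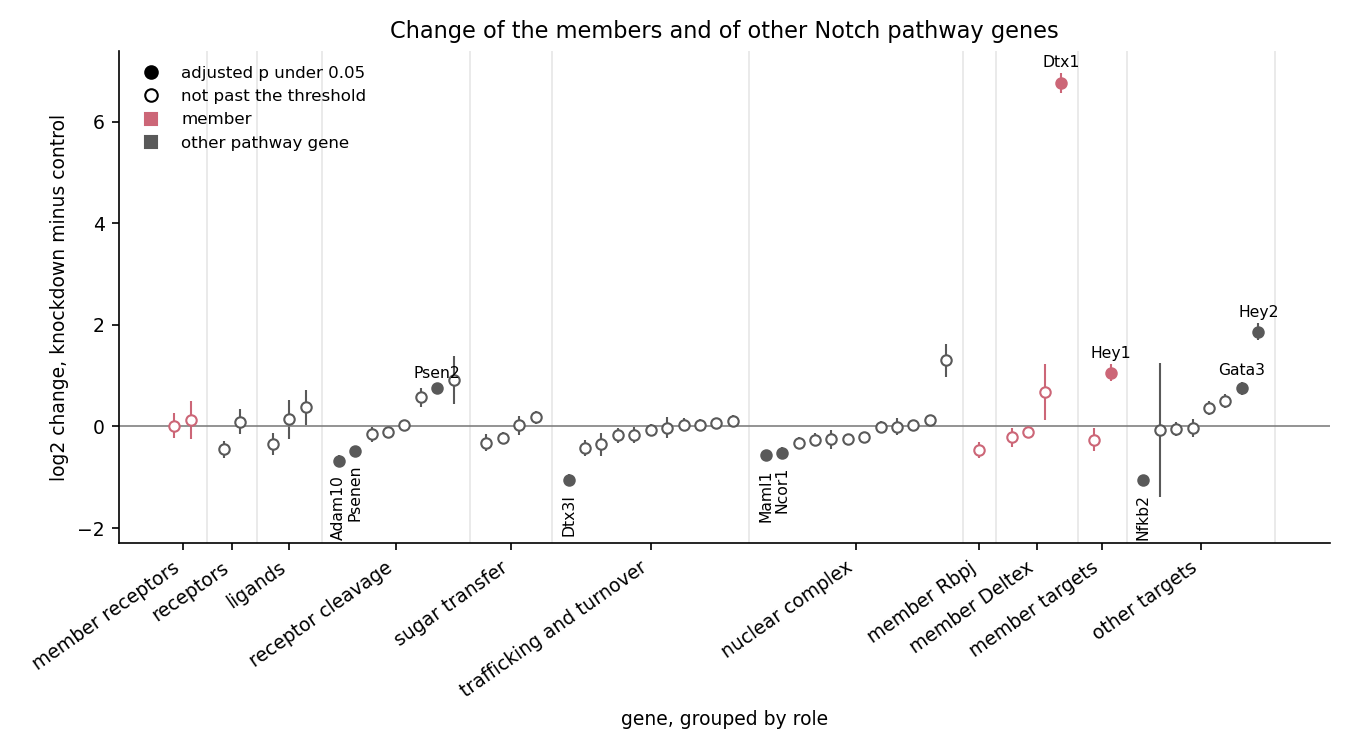
Log2 change of the knockdown against the control (points, with bars for the standard error, 3 arrays per group) of the 9 tested members (red) and of 48 other pathway genes (grey), grouped by role, with filled points where the adjusted p was under 0.05. Dtx1 at 6.77 stands above all other points, Hey2 at 1.87 and Hey1 at 1.06 follow among filled points, and 6 filled points lie below 0. For the members, the filling of a point is a description and no test.

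The genes next to Dtx1 on the chromosome were looked at as well, by their order among the protein-coding genes of the RefSeq gene table. Rasal1, a Ras GTPase-activating protein gene with no protein-coding gene between it and Dtx1, gave signals of 111, 93.7 and 110 on the control arrays and of 585, 482 and 538 on the knockdown arrays. It rose by 2.21 (SE 0.10, adjusted p = 0.000248 by limma), a 4.61-fold difference, with 2.18 within slide row 1 and 2.25 within row 2. Its call held under all 17 alternatives, with changes of 1.74 to 2.25. On the other side Oas3, an antiviral oligoadenylate synthetase gene, gave 34.2, 35.1 and 35.1 on the control arrays and 92.0, 57.3 and 75.9 on the knockdown arrays. It rose by 0.94 (SE 0.15, adjusted p = 0.0169 by limma). That call was lost under 10 of 17 alternatives, among them when any array but knockdown replicate 2 was left out (0.83 to 0.97), with quantile normalization (0.76) and with array median scaling (0.71). Oas1c, of the same family, fell by 0.89 (SE 0.10, adjusted p = 0.00558 by limma), a call lost with array median scaling (-1.12) and with the replicate number as a block (-0.89). Genes of the Oas family are alike in sequence, and their probes could pick up each other's transcripts. Oas1e (-0.27, SE 0.49), Ddx54 (0.12, SE 0.11) and Cfap73 (-0.22, SE 0.15) did not pass the threshold.

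**Figure D4:**
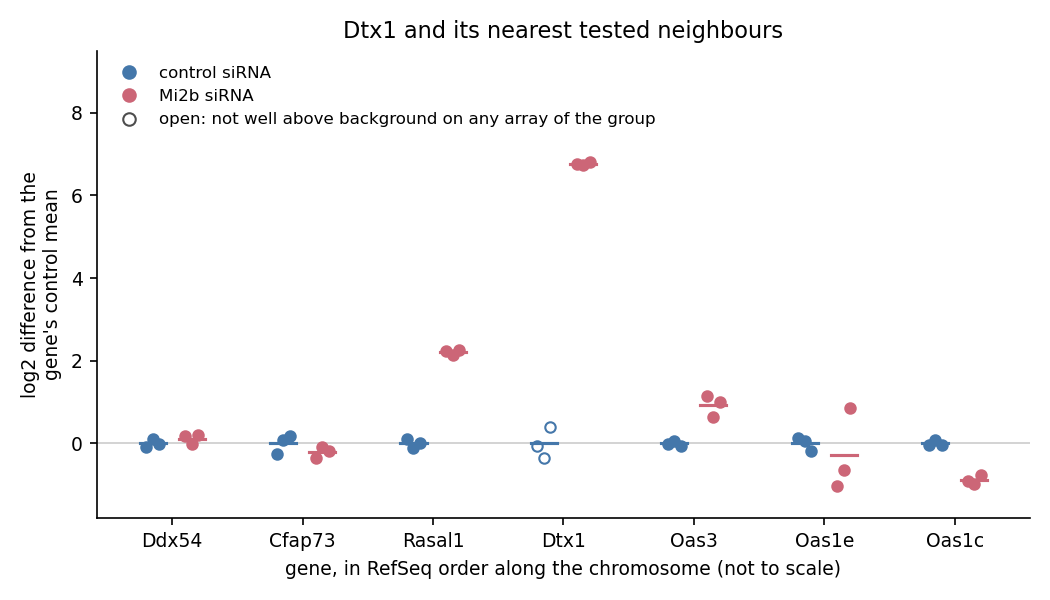
Log2 difference from each gene's own control mean for Dtx1 and its 3 nearest tested genes on each side, on the 3 control (blue) and 3 knockdown (red) arrays, with bars at the group means and open points where no array of the group was well above background. Rasal1, next to Dtx1, is higher on all 3 knockdown arrays with a mean change of 2.21, Oas3 rises by 0.94, Oas1c falls, and Ddx54, Cfap73 and Oas1e overlap.

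For the other 9 members, 54 neighbours were tested in the same way, of which 4 rose and 3 fell, beside 2 that rose and 1 that fell among the 6 neighbours of Dtx1. Over all genes tested 4.99% rose and 4.56% fell, and nothing is read from these counts of neighbours. Tmem44, near Hes1 with 4 protein-coding genes between, rose by 2.26 (SE 0.18, adjusted p = 0.00157 by limma) under all 17 alternatives, while Hes1 did not pass the threshold. Near Hes1, Ccdc50 (0.56, SE 0.10) and Atp13a3 (0.57, SE 0.13) rose, and near Hey1 Fabp5 (0.77, SE 0.10), a fatty acid binding protein gene, rose. Prkab2 near Notch2 (-0.76, SE 0.09) and Smim20 (-0.43, SE 0.09) and Pcdh7 (-0.65, SE 0.12) near Rbpj fell. Calls were lost for Atp13a3 (0.48 to 0.64) and Smim20 (-0.45 to -0.40) whichever array was left out, and for Ccdc50 (0.50 to 0.58) and Pcdh7 (-0.70 to -0.62) when any but control replicate 3 was. With the mean over its probes Pcdh7 was at -0.18. Of the 17 alternatives, 3 lost the call of Prkab2, 3 that of Fabp5, 9 that of Ccdc50, 10 that of Pcdh7, 11 that of Atp13a3 and 12 that of Smim20.

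The changes of the members were also set beside those of Hey2 and Rasal1 under each setting. The change of Dtx1 ranged from 2.90 to 6.97 over 16 alternatives, that of Rasal1 from 1.74 to 2.25, that of Hey2 from 1.19 to 2.02 and that of Hey1 from 0.82 to 1.19 over 17. Those of Hes1 (-0.58 to -0.14) and Rbpj (-0.70 to -0.11) were below 0 under each of the 17 alternatives. For Rbpj these values come from its brighter probe, or from the mean over both probes. Its dimmer probe was above 0 under each of 16 alternatives (0.019 to 0.45), so the sign for Rbpj depends on the probe.

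**Figure D5:**
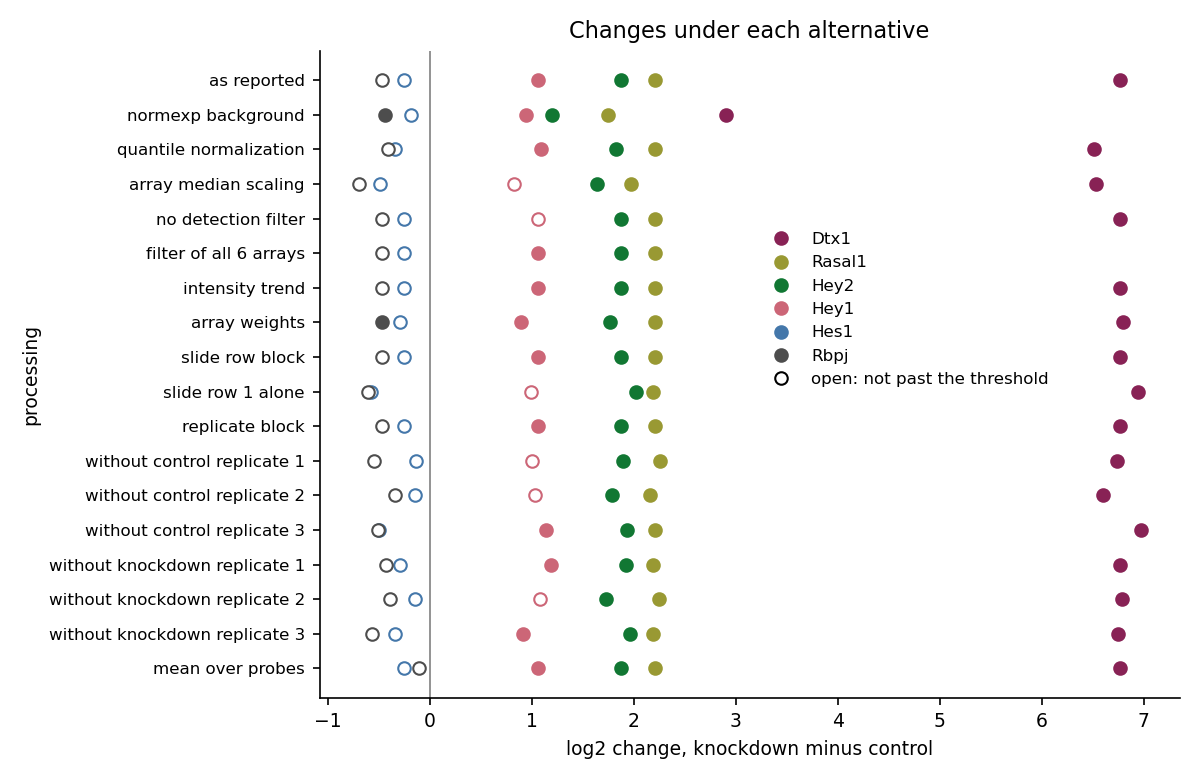
Log2 change (knockdown minus control) of 4 members, Hey2 and the Dtx1 neighbour Rasal1 as reported and under each of 17 alternative settings, with filled points where the gene was past the threshold of the fit over all genes. Dtx1 moves to 2.90 with normexp and has no value with the filter of all 6 arrays, Hey1 is open under 6 settings, and Hes1 and Rbpj stay below 0. The points of Rbpj do not show its dimmer probe alone, which was above 0.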

How the data were processed

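Each of 3 control and 3 knockdown RNA samples was labelled with Cy3 for an Agilent array of 1 colour. The authors' deposited scanner files hold spot intensities on a linear scale, with background already subtracted and no normalization between arrays; the software was Agilent Feature Extraction, version 10.7.3.1 in the file headers. After control and outlier-flagged spots were dropped, log2 signals were averaged per probe and the 75th percentile of each array was subtracted. A probe was kept if 3 of 6 arrays detected it, and the kept probe with the highest mean stands for its gene (22133 genes). Names were updated through RefSeq accessions (GRCm38.p6; 27509 of 29150 matched). limma 3.58.1 (R 4.3.3) compared the groups in a two-sided test without covariates. P-values were adjusted over all genes by the method of Benjamini and Hochberg, and 0.05 was the threshold behind "rose" and "fell".

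The members and gene lists were chosen with earlier results of these data known. Named are Chd4, all members, pathway genes past the threshold and the 2 largest changes of each role, neighbours past the threshold and those of Dtx1, and the 5 genes most like Dtx1. Alternatives changed the background correction, scaling, filter, probe choice, variance model, array weights, slide row, replicate block and arrays used. The number of arrays limits the precision.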

Additional observations from a re-analysis of the deposited data

How the results depend on the processing

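Over 705 comparisons of a single gene's or probe's value with an alternative, 563 kept direction and side of the threshold, 118 kept direction and lost the call, 5 gained one and 19 turned sign. Chd4, Hey2, Nfkb2, Rasal1 and Tmem44 kept their calls under all 17 alternatives. Dtx1, Dtx4 and Notch2 have no value with the filter of all 6 arrays. The values that turned sign were not past the threshold as reported. They were Notch1 with array median scaling (-0.11) and array weights (-0.031), Notch2 with normexp (-0.066), quantile normalization (-0.25), array median scaling (-0.21) and array weights (-0.034), Dtx2 with the mean over probes (0.085), and its dimmer probe with normexp (-0.023). Also Notch3 turned with array median scaling (-0.14) and array weights (-0.18), and Ddx54 with array median scaling (-0.12). With 1 array left out, the range held both signs for Notch1 (-0.21 to 0.45), Notch2 (-0.20 to 0.24), Notch3 (-0.13 to 0.24), Oas1e (-0.84 to 0.11) and the dimmer Dtx2 probe (-0.27 to 0.79). Notch1 turned without knockdown replicate 2, Notch2 without control replicate 3 or knockdown replicate 2, Notch3 without control replicate 2 or knockdown replicate 3, Oas1e without knockdown replicate 1, and the Dtx2 probe without control or knockdown replicate 2.

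As reported, 2115 genes and 2608 probes passed the threshold, with 9 pathway genes, 10 neighbours and 2 members among the genes. With array median scaling, which put the median change of all genes at -0.27 in place of -0.03, these counts were 831, 1142, 3, 2 and 1. With no detection filter they were 993, 942, 4, 5 and 1, and within slide row 1 alone (2 arrays per group) 720, 682, 3, 4 and 1. An intensity trend gave 3306 genes and 4315 probes, array weights 4729, 6485 and 21 neighbours, normexp 4052 probes, and the filter of all 6 arrays 1 member. With 1 array left out they ranged from 813 to 1579 genes, 870 to 1743 probes, 4 to 6 pathway genes, 5 to 7 neighbours and 1 to 2 members. The smallest of these counts of genes and probes came without knockdown replicate 1. The cause of these moves was not tested, beyond the fewer arrays or other genes that a setting leaves.

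The labels tie same-numbered samples by the number alone, though their arrays lay side by side on the slide. Their deviations from the group means correlated at 0.21, -0.32 and 0.13 for numbers 1 to 3 across genes, and not every sample correlated best with its own number. The fit with that number as a replicate block called 685 genes, 677 probes, 3 pathway genes and 2 neighbours. Signal near background limits the control values of Dtx1, and it limits Dtx4, Nrarp, Notch2 and the dimmer probes of Dtx2 and Notch1.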
